A study of Mus musculus with 5 samples.

Results

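The genes of the AP-1 transcription factors, the Fos family (Fos, Fosb, Fosl1, Fosl2) and the Jun family (Jun, Junb, Jund), were followed in the mouse hippocampus after seizures. They were chosen by gene symbol and are 7 of the 55385 genes counted in each library. RNA from hippocampi of male C57/bl6 mice, 3 months old, was sequenced without treatment or after an intraperitoneal injection of kainic acid, an agonist of glutamate receptors that evokes seizures. The series asks how neuronal activity changes gene transcripts over time. There was 1 untreated control library (time point 0 h), 1 library from kainic acid at 20 mg/kg taken 1 h after seizure onset, 2 libraries taken at 4 h and 1 library taken at 8 h, each of the last 3 time points with the same dose. The labels give no genetic modification. They do not say whether a library holds the RNA of 1 mouse. The libraries held 19100374 counts on genes in the control, 17744508 at 1 h, 18250114 and 19109204 in library 1 and library 2 at 4 h, and 16612225 at 8 h.

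AP-1 is a dimer that binds DNA through a basic region and a leucine zipper. Proteins of the Fos family need a partner, most often of the Jun family, whereas Jun proteins can also pair with each other. In neurons Fos, Fosb and Junb are immediate early genes, which are transcribed within minutes of synaptic activity without new protein synthesis, and Fos is widely used as a marker of recently active cells. Jund is known for a steadier level in resting cells.

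Normalized CPM are counts scaled by library size and edgeR's TMM factors. Intervals are exact 95% intervals that treat reads as independent and cover counting error only, not the spread between samples. As reads are not independent molecules, the intervals may be too narrow even for counting error. Apart from 4 h each group is a single library, so the differences at 1 h and 8 h have no replicate check of their own. Fosl1 passed the filter on low counts only through the 4 h libraries, and the other 6 genes had at least 70 counts in every library.

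Short stretches of promoter are shown for the members in which a searched motif was found, to place the family beside the activity-responsive elements known from such genes. Windows of 300 bases, 250 before and 50 after the start of transcription, were taken from RefSeq (GRCm38.p6) and covered 6 of the 7 genes (Fos, Fosb, Fosl2, Jun, Junb, Jund). The start used for Jund lies 1210 bases, and that for Fosl2 671 bases, from the gene start in GENCODE. Both strands were searched. The motif TGACG, a part of the cyclic AMP response element, was found in 3 of the 6 windows and in 20.8% of all 32851 windows. The AP-1 site TGACTCA (5.2% of all windows), the whole cyclic AMP response element TGACGTCA, which contains TGACG (1.79%), and the CArG box bound by serum response factor (1.63%) were found in 0 of the 6. Sequence more than 250 bases before the start was not searched, so these 0 matches say nothing about elements farther upstream. A match is a description of the letters, and binding was not measured. Capitals mark TGACG in these 29-base stretches, which lie upstream of the start on the strand of the gene (plus for Fos, minus for Fosb and Junb):
Fos, chr12:85473749-85473777: ggggcgtagagtTGACGacagagcgcccg
Fos, chr12:85473812-85473840: agttccgcccagTGACGtaggaagtccat
Fosb, chr7:19310089-19310117: tggagttgcgggTGACGcaagcgcggggg
Junb, chr8:84978838-84978866: gcttcctgacagTGACGcgagccgcctcc
The motif begins 129 and 66 bases before the start in Fos, 60 bases before it in Fosb and 106 bases before it in Junb. These 3 genes also had the highest ratios to the control at 1 h among the 7 members, as given below for each gene. Fosl1 had no window, and the windows of Jund and Fosl2 lie off the GENCODE gene start and may miss their promoters. The windows therefore cannot say whether the motif sets the 3 genes apart, and whether it has a part in their ratios was not tested.

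Within the Fos family Fos, Fosb and Fosl2 were above the control at 1 h and in both 4 h libraries, and much nearer to it at 8 h. Fos (ENSMUSG00000021250.13, chromosome 12 of GRCm38 from 85473890 to 85477273, plus strand) encodes the founding member of the family. The control held 215 counts of Fos, against 17563 at 1 h, 8743 in library 1 and 1331 in library 2 at 4 h, and 302 at 8 h. Scaled to normalized CPM, Fos stood at 10.8 (interval 9.41 to 12.3) in the control and 999 (985 to 1014) at 1 h. It was at 519 (508 to 530) in library 1, 70.4 (66.7 to 74.3) in library 2 and 17.2 (15.3 to 19.3) at 8 h. The 1 h library was the highest, every kainic acid library lay above the control, and no interval of these 5 libraries overlapped another. Relative to the control Fos was 92.5-fold (80.9 to 106) higher at 1 h, 48.1-fold (42.0 to 55.3) in library 1, 6.52-fold (5.64 to 7.56) in library 2 and 1.60-fold (1.33 to 1.91) at 8 h. Ordered by the ratio at 1 h, it took place 40 of the 19768 genes tested.

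Fosb (ENSMUSG00000003545.3) lies on chromosome 7 from 19302696 to 19310051 on the minus strand. Its truncated splice form, deltaFosB, is known as a long-lived protein in neurons, and the 7 annotated transcripts are counted together. Fosb had 70 counts in the control, 6540 at 1 h, 4012 (library 1) and 1138 (library 2) at 4 h, and 171 at 8 h, or 3.52 (2.74 to 4.44), 372 (363 to 381), 238 (231 to 246), 60.2 (56.7 to 63.8) and 9.76 (8.35 to 11.3) normalized CPM. The order of the libraries was the same as for Fos, with no overlap of the intervals. Fosb had the largest ratio to the control of the 7 members in each kainic acid library, namely 106 (83.6 to 136) at 1 h, 67.8 (53.5 to 87.1) in library 1, 17.1 (13.4 to 22.1) in library 2 and 2.77 (2.09 to 3.72) at 8 h. Its interval overlapped that of Fos at 1 h and in library 1, and the wide interval of Fosl1 in both 4 h libraries and at 8 h. At 8 h Fosb was the 1 member at least 2-fold above the control.

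Fosl2 (ENSMUSG00000029135.10, chromosome 5 from 32135801 to 32157842, plus strand) encodes Fra-2, a Fos protein without the strong activation domain of Fos. It had 1071 counts in the control, 6433 at 1 h, 6490 (library 1) and 2682 (library 2) at 4 h, and 1188 at 8 h. This gave 53.8 (50.6 to 57.1) normalized CPM in the control, 366 (357 to 375) at 1 h, 385 (376 to 395) in library 1, 142 (137 to 147) in library 2 and 67.8 (64.0 to 71.7) at 8 h. Unlike those of Fos and Fosb, the value in library 1 at 4 h was slightly above the 1 h value, by a ratio of 1.05 (1.02 to 1.09), whereas library 2 was 2.58-fold (2.47 to 2.70) below it. Fosl2 was thus 6.80 (6.37 to 7.26), 7.16 (6.71 to 7.65), 2.64 (2.46 to 2.83) and 1.26 (1.16 to 1.37) times the control in the 4 libraries.

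Fosl1 (ENSMUSG00000024912.6, chromosome 19 from 5447547 to 5455946, plus strand) encodes Fra-1 and was hardly detected. It had 3 counts in the control, 7 at 1 h, 28 (library 1) and 11 (library 2) at 4 h, and 5 at 8 h. These are 0.151 (0.0311 to 0.441), 0.398 (0.160 to 0.821), 1.66 (1.11 to 2.40), 0.582 (0.290 to 1.04) and 0.285 (0.0926 to 0.666) normalized CPM. Against the control Fosl1 was at 11.03 times (3.41 to 56.7) in library 1 and 3.86 times (1.02 to 21.5) in library 2 at 4 h, while at 1 h (2.64, interval 0.603 to 15.8) and 8 h (1.89, interval 0.368 to 12.2) a difference was not detectable at this depth. Exons of Ccdc85b on the opposite strand cover 57.2% of the exon length of Fosl1. Ccdc85b had 657 counts in the control, 550 at 1 h, 397 (library 1) and 561 (library 2) at 4 h, and 433 at 8 h. The sources used here do not state the strand setting of the counting. Of 477 genes that lie wholly under exons of the opposite strand, 203 had a count in at least 1 library. Whether reads of Ccdc85b are among those counted for Fosl1 was not tested.

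**Figure D1:**
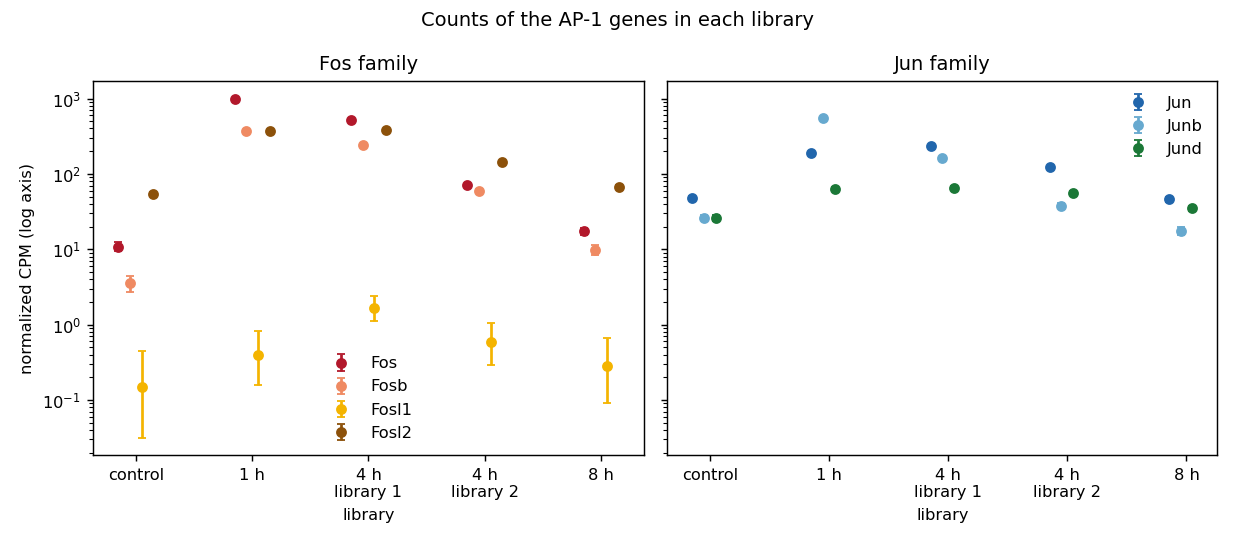
Normalized CPM (log axis) of the 4 Fos genes (left) and 3 Jun genes (right) in the control, 1 h, 4 h (libraries 1 and 2) and 8 h libraries; points are single libraries and bars exact 95% Poisson intervals of the count. Fos goes from 10.8 in the control to 999 at 1 h and Junb from 26.3 to 558, whereas Jund stays between 25.7 and 64.9.

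The Jun family covered a narrower range. Junb stood highest at 1 h and Jun in library 1 at 4 h, while Jund was about as high in both of these libraries. Junb (ENSMUSG00000052837.6, chromosome 8 from 84974484 to 84978718, minus strand) encodes a Jun protein that binds DNA as a dimer with Fos proteins and can dampen activation by Jun. It had 524 counts in the control, 9800 at 1 h, 2708 (library 1) and 718 (library 2) at 4 h, and 308 at 8 h. Scaled by library size and TMM factor this gave 26.3 (24.1 to 28.7), 558 (547 to 569), 161 (155 to 167), 38.0 (35.2 to 40.9) and 17.6 (15.7 to 19.7) normalized CPM. Junb was therefore 21.2 (19.4 to 23.2) times the control at 1 h, the highest ratio of the Jun family, but only 6.11 (5.56 to 6.72) and 1.44 (1.29 to 1.62) times in the 4 h libraries. At 8 h it lay below the control, at a ratio of 0.667 (0.578 to 0.770). Compared with 1 h, Junb was 3.47-fold (3.32 to 3.62) lower in library 1 and 14.7-fold (13.6 to 15.9) lower in library 2.

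Jun (ENSMUSG00000052684.4, chromosome 4 from 95049034 to 95052222, minus strand), an intronless gene whose protein is activated by phosphorylation through the Jun N-terminal kinases, behaved otherwise. The counts were 959 in the control, 3333 at 1 h, 3989 (library 1) and 2309 (library 2) at 4 h, and 805 at 8 h, which correspond to 48.2 (45.2 to 51.3), 190 (183 to 196), 237 (230 to 244), 122 (117 to 127) and 45.9 (42.8 to 49.2) normalized CPM. The highest value was found in library 1 at 4 h, and the 8 h interval overlapped that of the control. Relative to the control Jun was at 3.94 times (3.66 to 4.23) at 1 h, 4.92 times (4.58 to 5.28) in library 1, 2.53 times (2.35 to 2.74) in library 2 and 0.953 times (0.867 to 1.05) at 8 h. Between 1 h and 4 h no common direction was seen, with library 1 above and library 2 below the 1 h library.

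Jund (ENSMUSG00000071076.6, chromosome 8 from 70698949 to 70700616, plus strand) had 512 counts in the control, 1119 at 1 h, 1093 (library 1) and 1069 (library 2) at 4 h, and 609 at 8 h. Its normalized CPM of 25.7 (23.5 to 28.1), 63.7 (59.99 to 67.5), 64.9 (61.1 to 68.9), 56.5 (53.2 to 60.03) and 34.7 (32.0 to 37.6) lie close together at 1 h and 4 h. Library 1 could not be told from the 1 h library and library 2 was slightly lower, at 0.888 (0.816 to 0.967) times its value. All kainic acid libraries lay above the control, by ratios of 2.48 (2.23 to 2.75) at 1 h, 2.52 (2.27 to 2.81) in library 1, 2.20 (1.98 to 2.45) in library 2 and 1.35 (1.20 to 1.52) at 8 h. Exons of the antisense gene Gm11175 cover 52.6% of Jund, but it had only 26 counts in the control, 24 at 1 h, 10 (library 1) and 16 (library 2) at 4 h, and 16 at 8 h. Jun and Junb share 7.28% and 7.52% of their exon length with the opposite-strand genes Junos, with 13 to 29 counts, and Prdx2, with 2341 to 3081 counts.

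**Figure D2:**
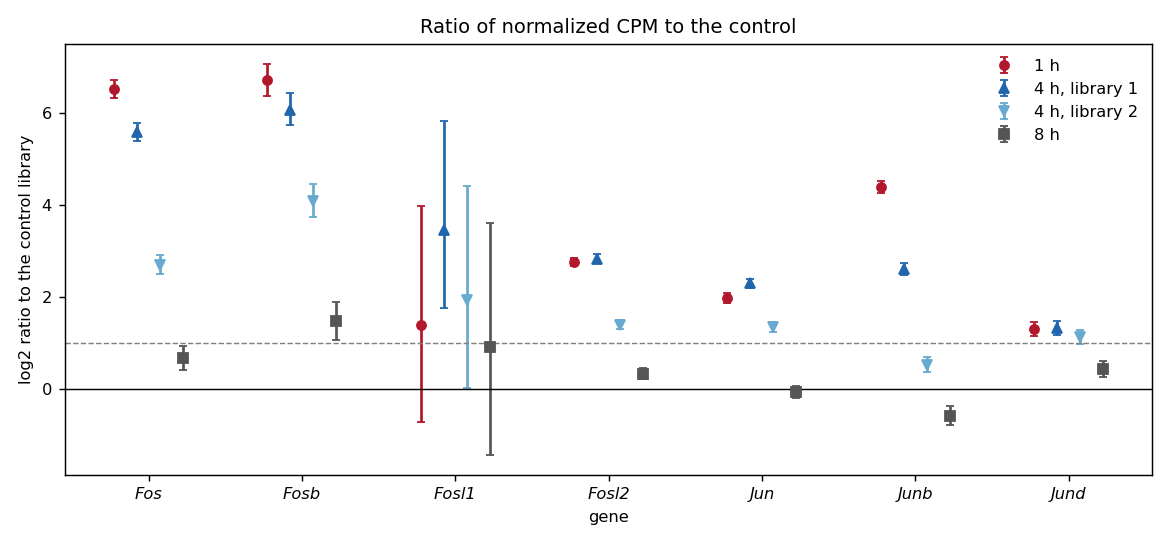
Log2 ratio of normalized CPM to the control library for each gene in the 1 h, 4 h (libraries 1 and 2) and 8 h libraries; bars are exact 95% counting intervals, the solid line is no difference and the dashed line a ratio of 2. At 8 h Fosb alone has a point above the dashed line, and Jun (0.953) and Junb (0.667) are below the solid line.

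To ask whether the 7 genes passed a test across all genes, the quasi-likelihood test of edgeR was run for each time point against the control, with Benjamini-Hochberg adjustment over 19768 genes. The spread comes from the 2 libraries at 4 h, and the single libraries were assumed to vary like this pair. With an adjusted p under 0.05, edgeR called 0 of the 7 members at 1 h (0% of all genes), 0 at 4 h (0.00506%) and 0 at 8 h (0%). The unadjusted p was under 0.05 for 6 members at 1 h (all but Fosl1, 2.42% of all genes), for 6 at 4 h (all but Junb, 11.6%) and for 0 at 8 h (4.51%). DESeq2 called 2 members at 1 h (Fosb and Jun, 0.283% of all genes), 3 at 4 h (Fosb, Jun and Jund, 1.2%) and 0 at 8 h (0.167%), and limma-voom called 0 at each time point. The members were chosen with results of these data known, so these counts are a description.

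The fitted log2 fold changes at 1 h were 6.52 (SE 1.497) for Fos, 6.68 (SE 1.11) for Fosb, 0.96 (SE 1.35) for Fosl1 and 2.76 (SE 0.68) for Fosl2 in the Fos family. In the Jun family they were 1.97 (SE 0.46) for Jun, 4.399 (SE 1.01) for Junb and 1.30 (SE 0.23) for Jund, with a Benjamini-Hochberg adjusted p of 1 for all 7 in the edgeR test. Thus Jund had the smallest of the fold changes other than that of Fosl1, but also the smallest SE. At 4 h the values were 4.76 (SE 1.33) for Fos, 5.36 (SE 1.02) for Fosb, 2.23 (SE 1.12) for Fosl1, 2.29 (SE 0.62) for Fosl2, 1.89 (SE 0.43) for Jun, 1.91 (SE 0.84) for Junb and 1.24 (SE 0.21) for Jund. The Benjamini-Hochberg adjusted p of the edgeR test at 4 h ranged from 0.245 for Jund to 0.459 for Junb. At 8 h the log2 fold changes lay between -0.58 (SE 0.91) for Junb and 1.44 (SE 0.98) for Fosb, with a Benjamini-Hochberg adjusted p of 1.000 in the edgeR test for each. The values at 4 h depended on library 1. Without it the log2 fold changes of the Fos family were 2.69 for Fos, 4.06 for Fosb, 1.41 for Fosl1 and 1.396 for Fosl2, and without library 2 they were 5.57, 6.04, 2.76 and 2.84. In the Jun family Jun was at 1.34, Junb at 0.53 and Jund at 1.13 without library 1, and at 2.30, 2.61 and 1.33 without library 2. Jund differed least.

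By fold alone, 7 of the 7 members were at least 2-fold above the control at 1 h, against 5.15% of the genes tested, although the interval of Fosl1 included no difference. In both 4 h libraries 6 of 7 were (all but Junb), against 4.75%, and at 8 h 1 of 7 was (Fosb), against 6.61%. None of the 7 was at least 2-fold below the control at 1 h, 4 h or 8 h, where 3.62%, 1.5% and 3.26% of the genes were. The filter favoured Fosl1 in the counts at 4 h, as it passed only through these libraries, and the count at 8 h rests on a single gene.

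The kainic acid time points were also compared with each other. Between 1 h and 4 h edgeR's test called 0 members (0.00506% of all genes), 1 member (Junb) had an unadjusted p under 0.05 (7.94%), and DESeq2 (0.551%) and limma-voom called 0. Between 4 h and 8 h edgeR's test called 0 members (0%), 6 members (all but Fosl1) had an unadjusted p under 0.05 (8.73%), DESeq2 called Jun (0.653%) and limma-voom called 0. Junb was the 1 member at least 2-fold lower in both 4 h libraries than at 1 h, against 1.51% of the genes, and without library 1 there were 4 such members (4.88% of the genes). At 8 h 6 of 7 were at least 2-fold below both 4 h libraries, against 2.95%, although for Fosl1 the interval against library 2 included no difference. Jund was the exception, 1.87-fold (1.69 to 2.07) below library 1 and 1.63-fold (1.47 to 1.80) below library 2. From 1 h to 8 h the normalized CPM were 58.0-fold lower for Fos, 38.1-fold for Fosb and 31.7-fold for Junb, but 5.40-fold for Fosl2, 4.13-fold for Jun and 1.83-fold for Jund. Fos, Fosb and Junb, the 3 genes with the highest ratios at 1 h, thus also covered the largest range on the way down.

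Levels of different genes were compared per length, as normalized CPM per kb of annotated exon. In the control Jund (15.4, interval 14.1 to 16.8) and Jun (15.1, 14.2 to 16.1) were the most abundant and could not be told apart, followed by Junb (11.4), Fosl2 (5.56), Fos (4.59), Fosb (0.563) and Fosl1 (0.0741), where the intervals of Fosl2 and Fos overlapped. At 1 h the order was Fos (425), Junb (242), Fosb (59.6), Jun (59.5), Jund (38.2), Fosl2 (37.8) and Fosl1 (0.196), with overlapping intervals for Fosb and Jun and for Jund and Fosl2. Fos was still first in library 1 at 4 h (221), ahead of Jun (74.3), Junb (69.9), Fosl2 (39.8), Jund (38.9) and Fosb (38.2), where Jun and Junb overlapped, as did the last 3. In library 2 the order was Jun (38.3), Jund (33.9), Fos (29.9), Junb (16.5), Fosl2 (14.7) and Fosb (9.64), so that the 4 h libraries differed in which gene led. At 8 h Jund (20.8) and Jun (14.4) led again, and Junb (7.64), Fos (7.33) and Fosl2 (7.001) had overlapping intervals. These orders depend in part on the length used. Per kb of the longest transcript Fosb stood at 98.4 at 1 h, well above Jun (59.5), and Fosl2 (55.99) came before Jund. In library 1 Junb then came before Jun, and Fosb before Fosl2 and Jund, and in library 2 Fosl2 came before Junb. At 8 h Fosl2 came before Junb and Fos. The leading gene of each library was the same with both lengths.

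Summed over the genes of each family, the Fos family was below the Jun family in the control, with 10.8 against 42.0 normalized CPM per kb, a ratio of 0.257. At 1 h the sums were 522 and 340, a ratio of 1.54, and the Fos family stood at 48.4 times its control sum and the Jun family at 8.10 times. The ratio was 1.64 in library 1 (300 against 183) and 0.615 in library 2 (54.5 against 88.7) at 4 h, and 0.374 (16.03 against 42.9) at 8 h. The Fos family was therefore the more abundant of both at 1 h and in library 1, and the less abundant in the control, in library 2 and at 8 h. Fos alone made up 8.71% of the summed level of the 7 genes in the control, 49.3% at 1 h, 45.7% (library 1) and 20.9% (library 2) at 4 h and 12.4% at 8 h. Jund made up 29.2% in the control and 4.43% at 1 h, while Junb went from 21.7% to 28.1%. Per length of the longest transcript, which is 3782 bases for Fosb in place of 6243 bases of exon in all transcripts, the ratios of the families were 0.319, 1.55, 1.83, 0.765 and 0.473 in the 5 libraries.

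**Figure D3:**
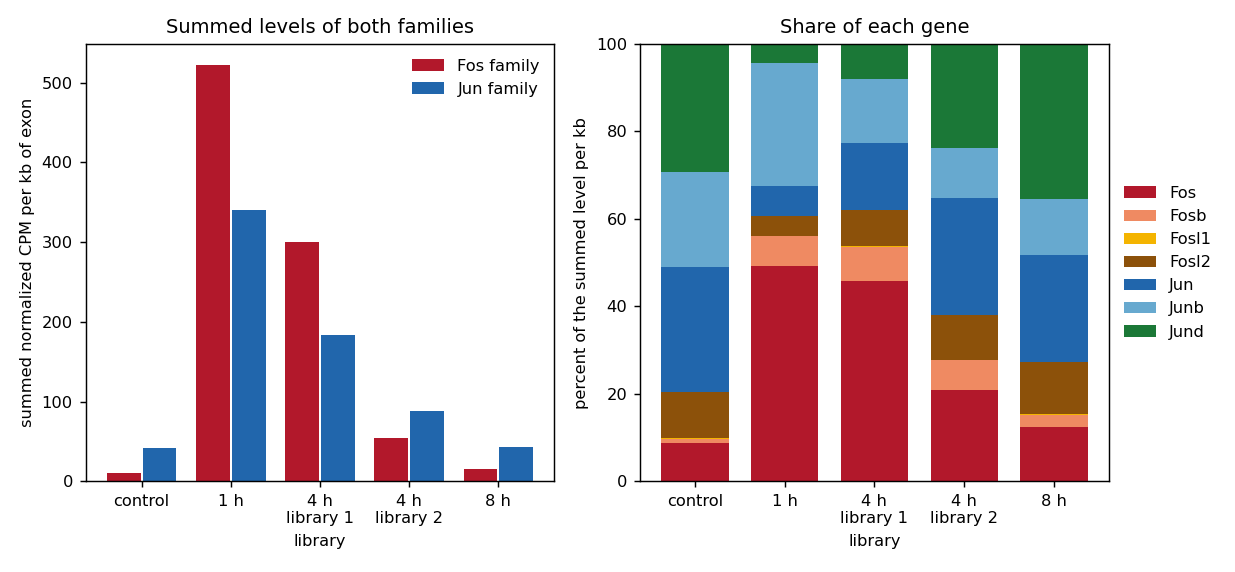
Left, summed normalized CPM per kb of exon of the 4 Fos genes and the 3 Jun genes in each library; right, percent of the sum over all 7 genes that each gene makes up. The Fos family sum exceeds that of the Jun family at 1 h (522 against 340) and in library 1 at 4 h (300 against 183), but not in the other 3 libraries.

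The 2 libraries at 4 h differed widely for AP-1 genes. Library 1 had 7.38 (6.96 to 7.82) times the normalized CPM of library 2 for Fos, 4.24 (3.90 to 4.61) times for Junb, 3.96 (3.71 to 4.23) times for Fosb, 2.86 (1.38 to 6.36) times for Fosl1 and 2.72 (2.60 to 2.84) times for Fosl2. For Jun the ratio was 1.94 (1.84 to 2.04) and for Jund 1.15 (1.05 to 1.25), so that all 7 members were higher in library 1. Over all genes tested the log2 ratio of the libraries, with a prior count of 2, had a median of 0.01 and an SD of 0.66, and 1953 genes (9.88%) differed at least 2-fold, as did 5 of the 7 members. A difference as large as that of Fos was found for 0.501% of the genes, and one as large as that of Jund for 59.0%. The 16 other immediate early genes of the list described below were all higher in library 1, with a median log2 ratio of 1.99. Among markers of cell types, the sum for choroid plexus (Ttr, Kl, Folr1) was 26.0 normalized CPM in library 1 and 4142.5 in library 2, that for thalamus and striatum (Tcf7l2, Drd2, Adora2a) 16.2 and 7.40 through Tcf7l2 alone (13.1 and 4.18, against 1.90 and 1.75 for Drd2 and 1.19 and 1.48 for Adora2a), and that for endothelium (Cldn5, Flt1, Pecam1) 107 and 63.6. Reads assigned to no annotated feature made up 33.1% in library 1 and 25.3% in library 2. The part of the dissected tissue, of the cells it held and of the reads outside genes in the difference between the libraries was not tested.

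**Figure D4:**
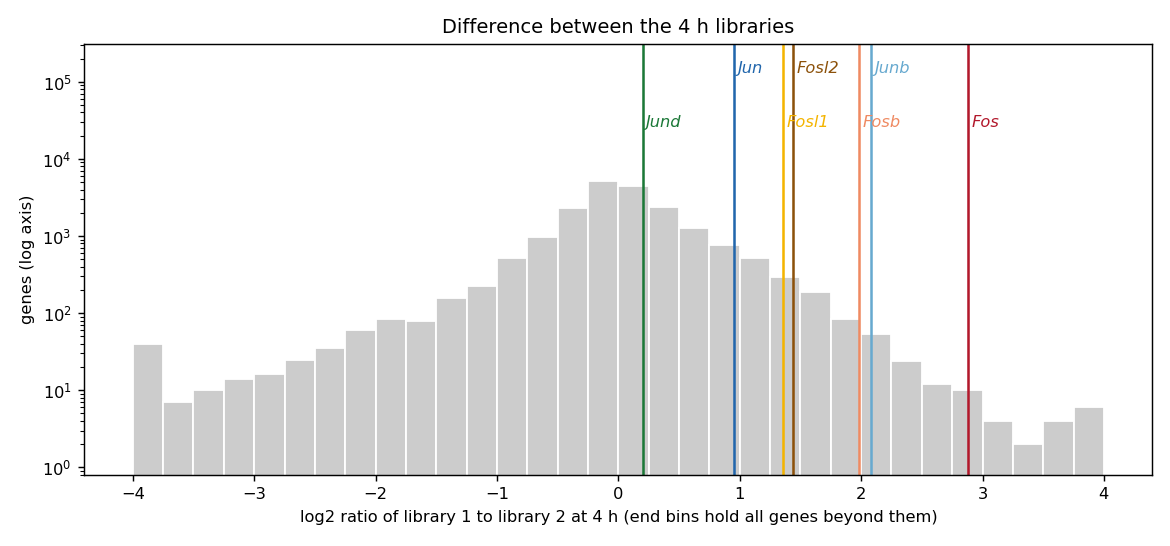
Histogram of the log2 ratio of library 1 to library 2 at 4 h over the 19768 genes tested (log axis of gene numbers, prior count 2, the end bins hold all genes beyond them), with a line for each of the 7 genes. Jund (0.20) lies near the centre and Fos (2.88) in the upper tail, and all 7 lines are right of 0.

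The markers were examined in all libraries, as RNA from whole hippocampi mixes cell types, and fewer cells of a type and less RNA per cell cannot be told apart in it. All 27 markers of 9 lists had counts in every library, and no defining marker was at 0. Neurons (Rbfox3, Snap25, Syt1, led by Snap25) summed to 2870 normalized CPM in the control, 3035 at 1 h, 2950 (library 1) and 2625 (library 2) at 4 h and 2476 at 8 h. This sum is mostly Snap25 and Syt1, and Rbfox3 went from 119 normalized CPM in the control to 82.0 and 82.4 at 4 h. Dentate granule cells (Prox1, C1ql2, Dsp, led by Dsp in the control and Prox1 later) summed to 162, 161, 187, 145 and 204, and the CA fields (Neurod6, Wfs1, Fibcd1, led by Neurod6 in the control) to 361, 336, 207, 248 and 281. Both sets are markers of hippocampal fields. The genes of the dentate sum went apart at 4 h. Dsp had 1437 counts in the control and 73 and 257 at 4 h, C1ql2 had 584 and then 186 and 221, and Prox1 had 1194 and then 2889 and 2263. Of the CA genes, Neurod6 went from 144 normalized CPM in the control to 60.9 and 67.1 at 4 h and Fibcd1 from 132 to 69.1 and 92.3, but Wfs1 from 84.7 to 76.7 and 88.5.

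Astrocyte markers (Aqp4, Aldh1l1, Slc1a3, led by Slc1a3) summed to 701 normalized CPM in the control, 743 at 1 h, 924 (library 1) and 845 (library 2) at 4 h and 769 at 8 h, and microglia (P2ry12, Tmem119, Cx3cr1, led by Cx3cr1) to 80.4, 80.1, 50.9, 57.9 and 74.9. Endothelial markers, led by Flt1, summed to 67.3, 67.5, 107, 63.6 and 80.7. The choroid plexus sum, led by Ttr, was 3894 in the control, 1642 at 1 h, 26.0 (library 1) and 4142.5 (library 2) at 4 h and 3010 at 8 h. Blood (Hbb-bs, Hba-a1, S100a8, led by Hbb-bs) gave 107, 88.8, 183, 120 and 142, and thalamus and striatum, led by Tcf7l2, 4.87, 5.18, 16.2, 7.40 and 3.82. At 1 h the sums stood between 0.834 and 1.06 times the control, apart from that of choroid plexus at 0.422 times. Whether any of these differences bears on the AP-1 genes was not tested.

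Other genes of the pathway were taken from lists of literature knowledge, and the filter admitted some of them only through the library in which they were high. In none of the lists at any time point did edgeR's test call a gene. Of the 16 other immediate early genes, which encode transcription factors and other proteins of the first response to activity, 16 were at least 2-fold above the control at 1 h, against 5.15% of all genes, with a median log2 ratio of 3.60, against -0.01 over all genes, and 15 had an unadjusted p under 0.05 (2.42% of all genes). The farthest from the control were Npas4, a neuron-specific factor induced by calcium influx, with 78 counts in the control and 12204 at 1 h, Egr2 with 48 and 3726, Btg2 with 323 and 12133, and Ccn1 with 36 and 1218. In both 4 h libraries 5 of 16 were at least 2-fold above the control, against 4.75% of all genes, with a median of 1.33, and the farthest were Arc, Ccn1, Npas4 and Egr4. Library 1 alone had all 16 at least 2-fold above (11.8% of all genes), with Klf4 lowest at 2.27 times the control. Library 2 alone had the same 5 (6.40%), with Btg2 lowest at 0.753 times. The median is over the means of both libraries. Arc, which acts at synapses, had 2936 counts in the control, 35538 at 1 h, 43661 (library 1) and 17548 (library 2) at 4 h and 2658 at 8 h, and like Fosl2 and Jun it was highest in library 1. Npas4 had 2189 and 93 counts at 4 h. At 8 h the median was -0.26, with 2 genes at least 2-fold above (Ier5 and Ccn1, 6.61% of all genes) and 2 at least 2-fold below (Egr2 and Nr4a2, 3.26%). Nr4a2 was at 0.367 times the control and Egr3 at 1.99 times. Junb, below the control at 8 h, was in this respect like Nr4a1 (0.636), Egr1 (0.654) and Dusp1 (0.677).

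Among 13 bZIP partners and relatives of AP-1, 11 passed the filter and Batf and Batf2, with at most 5 counts in a library, did not. At 1 h 4 of the 11 were at least 2-fold above the control (Atf3, Maff, Mafk and Jdp2), at 4 h 3 (Atf3, Maff and Mafk) and at 8 h 3 (Atf3, Batf3 and Maff), against 5.15%, 4.75% and 6.61% of all genes. Their median log2 ratios at these time points were 0.00, 0.41 and 0.15. Atf3, a stress-induced partner of Jun proteins, had 13 counts in the control, 1939 at 1 h, 2397 (library 1) and 1028 (library 2) at 4 h and 78 at 8 h, and its ratios of 169, 218, 83.2 and 6.81 exceeded those of each AP-1 member in all 4 libraries. Maff, a small Maf protein without an activation domain, had 13, 411, 366, 116 and 40 counts. Mafk (183, 518, 484, 384 and 229 counts) kept a more even level between 1 h and 4 h, like Jund, and was at 1.42 times the control at 8 h. Batf3 stood apart in time, with 13 counts in the control, 8 at 1 h, 20 (library 1) and 20 (library 2) at 4 h and 77 at 8 h. At 4 h Atf4, a factor of the integrated stress response, was the next in size with 2.29 and 1.80 times the control.

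The 14 regulators of Fos and Jun transcription had median log2 ratios of 0.02 at 1 h, 0.01 at 4 h and 0.06 at 8 h. At 1 h 2 of them were at least 2-fold above the control, against 5.15% of all genes, namely Crem, whose short form represses cyclic AMP response elements, at 3.04 times and Srf, which binds the CArG box, at 2.57 times. Elk4 and Mef2c were next, at 1.48 and 1.23 times. At 4 h none of the 14 was past 2-fold in both libraries, where 4.75% of all genes were above and 1.5% below. Crem had 919 and 419 counts at 4 h against 235 in the control. Crtc1 and Elk1 were lower, at 0.564 and 0.642 times the control for Crtc1 and 0.576 and 0.642 times for Elk1, and Elk4 was at 1.85 and 1.36 times. At 8 h the farthest were Crem (1.38), Elk4 (1.31), Mef2d (1.20) and Creb1 (1.19).

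The 14 kinases upstream of AP-1 had medians of -0.01, -0.17 and -0.21. None was past 2-fold in either direction at 1 h, in both 4 h libraries or at 8 h. Of all genes 5.15%, 4.75% and 6.61% were above and 3.62%, 1.5% and 3.26% below, so that few or no genes past 2-fold are to be found among 14 at these shares. Rps6ka3, which encodes the kinase RSK2, stood at 1.19 times the control at 1 h and at 3.48 and 1.80 times at 4 h, and Mapk3, which encodes ERK1, at 0.933, 0.617, 0.681 and 0.568 times in the 4 libraries. The others farthest from the control at 1 h were Map2k2 (0.901), Map2k7 (0.914) and Mapk8 (1.08). Rps6ka5, which encodes the kinase MSK1, was at 0.591 and 0.601 times the control at 4 h and 0.599 times at 8 h, and Rps6ka2 at 1.72 and 1.41 times and then 0.626 times. At 8 h Rps6ka3 was at 1.42 times.

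Of 9 genes that act in the turnover of AP-1 proteins and mRNAs, 2 were at least 2-fold above the control at 1 h (5.15% of all genes), and none in both libraries at 4 h (4.75%) or at 8 h (6.61%). Zfp36, which encodes a protein that destabilizes mRNAs with AU-rich elements, had 31 counts in the control, 154 at 1 h, 154 (library 1) and 35 (library 2) at 4 h and 35 at 8 h, and Zfp36l2 was 2.33 times the control at 1 h. Zfp36, like Junb, was nearer to the control in library 2 (1.19 times) than in library 1 (5.87 times). Zfp36l1 and Fbxw7 followed at 1 h, at 1.354 and 1.346 times. Cop1 and Fbxw7, parts of ubiquitin ligases that act on Jun, were at 3.36 and 1.93 and at 2.27 and 1.91 times the control at 4 h, and Zfp36l2 at 1.55 and 1.16 times. At 8 h Cop1 (1.33), Zfp36 (1.28), Itch (1.21) and Fbxw7 (1.20) were the farthest.

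Of 20 known AP-1 target genes, 17 passed the filter, without Mmp13 and Il6, with at most 5 counts in a library, and Mmp10, with 0 counts in every library. At 1 h 2 of the 17 were at least 2-fold above the control (Plaur and Ccl2), in both 4 h libraries 8, and at 8 h 8, against 5.15%, 4.75% and 6.61% of all genes. The sets at 4 h and 8 h differ, as Penk was past 2-fold at 4 h only (0.940 times the control at 8 h) and Mmp3 at 8 h only. Their median log2 ratios at 1, 4 and 8 h were 0.07, 1.37 and 0.63. With Ccl2 and Mmp3, which had 0 counts in the control, at their bound against a floor of 3 counts, the median was 0.57 at 4 h and 0.63 at 8 h, so that no order of these time points can be given. Plaur, the urokinase receptor, had 3 counts in the control, 54 at 1 h, 72 (library 1) and 14 (library 2) at 4 h and 16 at 8 h, and Timp1, an inhibitor of metalloproteinases, had 3, 4, 93, 16 and 13. Ccl2, a chemokine, had 0, 18, 38, 13 and 10 counts, which is at least 6.79-fold above the control floor at 1 h, 14.97-fold in library 1, 4.56-fold in library 2 and 3.78-fold at 8 h. The metalloproteinase gene Mmp3 had 13 counts at 8 h, at least 4.92-fold higher. Pdyn, which encodes the opioid precursor prodynorphin, stood at 1.70 times the control at 1 h, 8.12 and 2.82 times at 4 h and 2.96 times at 8 h, and Penk, which encodes proenkephalin, at 1.57 times at 1 h. Mmp9 was the 1 gene at least 2-fold below the control at 4 h and 8 h, against 1.5% and 3.26% of all genes. It had 24 counts in the control, 20 at 1 h, 10 (library 1) and 11 (library 2) at 4 h and 8 at 8 h. Whether AP-1 acts on them here was not tested.

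**Figure D5:**
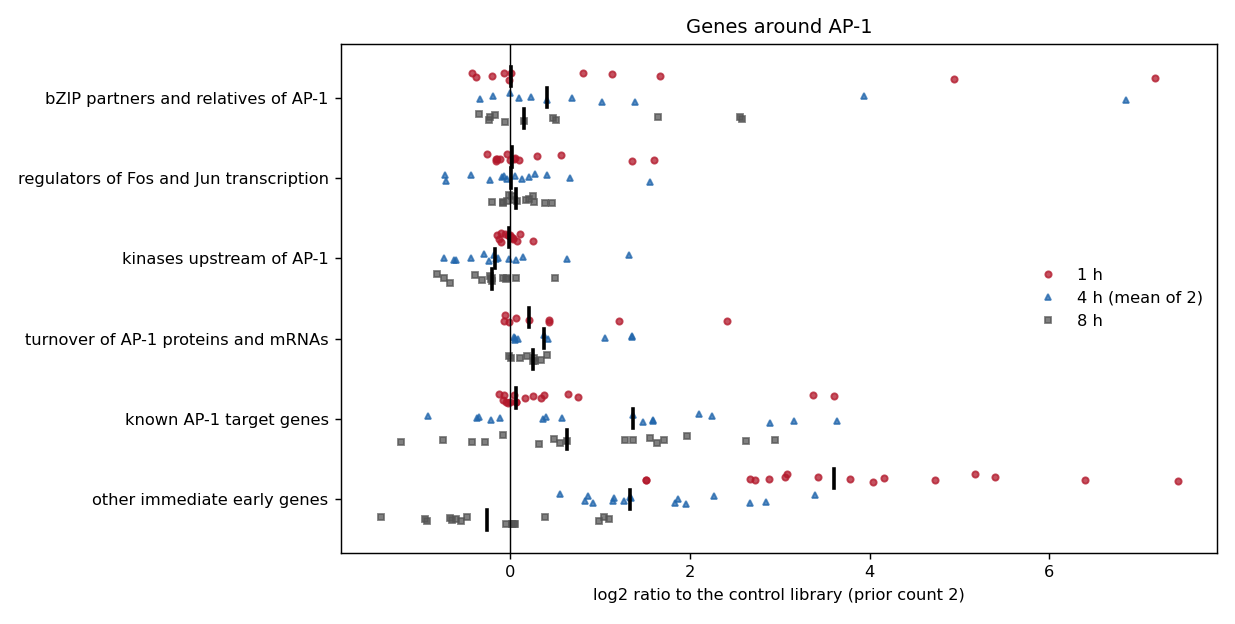
Log2 ratio to the control (prior count 2) of each gene passing the filter in 6 lists at 1 h, 4 h (mean of 2 libraries) and 8 h; black bars are medians. The other immediate early genes are highest at 1 h (median 3.60), while kinases and regulators lie around 0.

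The genes most like each member were sought by the root-mean-square difference of the log2 ratios to the control (prior count 2) over the 4 kainic acid libraries, leaving out the members. For Fos these were 1700016P03Rik (0.95), Maff (1.01) and Cenpa (1.07), and the same 3 genes came nearest to Fosb, at 1.18 for Maff, 1.27 for Cenpa and 1.36 for 1700016P03Rik. Fos and Fosb were closer to each other (0.82) than to any of these. For Junb the nearest were Nr4a1 (0.32) and Ier2 (0.43), both immediate early genes, and Gm13889 (0.52). Nr4a1 had 673 counts in the control, 10641 at 1 h, 2747 (library 1) and 655 (library 2) at 4 h and 377 at 8 h. Jun was nearest to Fam107b (0.12), Spry2 (0.14), a feedback inhibitor of growth factor signalling, and Emd (0.16). Spry2 had 736, 2623, 3596, 1950 and 653 counts. For Fosl2 the nearest were Kif18a (0.14), Gm38357 (0.23) and Trib1 (0.24), for Jund Snhg15 (0.06), Nlrp3 (0.08) and Gm37486 (0.08), and for Fosl1 Gm48114 (0.11), Gm44721 (0.13) and Cd164l2 (0.16). Fosl1, Nlrp3 with 8 counts in the control and Gm44721 with 1 are low enough that the prior count shapes these distances. All ratios share the same control library, and whether the genes share a regulator was not tested.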

How the data were processed

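The deposited files hold raw read counts per gene, made by the authors from stranded total RNA libraries. Per the submitters' processing notes, STAR 2.5.1b, HTSeq and the build GRCm38.p4 were used. Neither the annotation release nor the strand setting of the counting is stated there. Reads assigned to no feature (24.7% to 33.1% of each library) were left out of library sizes and tests.

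Counts were scaled by TMM in edgeR 4.0.16 (R 4.3.3). Of 55385 genes, 19768 passed filterByExpr. All 5 libraries were fitted as 4 groups with glmQLFit and glmQLFTest, which leaves 1 residual degree of freedom, from the 4 h pair, and gave a biological coefficient of variation of 0.238. P-values were adjusted over all genes by Benjamini-Hochberg with a threshold of 0.05. As nothing says that the libraries came from separate mice, p-values measure only the spread between these libraries, which may be technical. Log2 fold changes used a prior count of 2, and SEs, derived from the F statistic, are those of the coefficients without it. In counts of genes past a fold, a count of 0 was set to a floor of 3 counts, between 0.151 and 0.178 normalized CPM, and genes with both counts at or under it did not count as past the fold. Intervals on counts are exact Poisson, those on ratios exact conditional binomial (Clopper-Pearson), both at 95%. The tests were run on simulated counts first. DESeq2 1.42.0 and limma 3.58.1 were alternatives.

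Positions and exon lengths come from GENCODE M21 (55144 gene IDs matched), promoter windows from RefSeq. Mkl1, Mkl2 and Cyr61 were matched as Mrtfa, Mrtfb and Ccn1. The members and lists were chosen with earlier results of these data known. The text names the 7 members, in each list and time point described the 4 genes farthest from the control, members of lists at 0, and for each member the 3 nearest genes. Beyond this rule, further genes past 2-fold and Egr1 and Dusp1 were named after their values were seen. Some listed genes are not reported here and were left out of list counts, medians and sums. Proteins were not analysed here.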

Additional observations from a re-analysis of the deposited data

Results flagged for a closer look

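Jun and Junb lay on opposite sides of the control at different time points. Jun was above the control at 1 h and in both 4 h libraries and at 0.953 times the control (interval 0.867 to 1.05) at 8 h, where the interval includes no difference. Junb was above the control at 1 h and in both 4 h libraries and at 0.667 times the control (0.578 to 0.770) at 8 h, where 1 library stands against 1. With RLE factors the 8 h ratios were 0.955 for Jun and 0.669 for Junb, and with library size alone 0.965 and 0.676. In the comparison of 8 h with 4 h given above, edgeR's test called neither gene and DESeq2 called Jun. The change of side relative to the control was not itself tested.

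Reads that fell on no annotated gene are outside the comparisons. Their share was 24.7% in the control and higher in each kainic acid library, with 29.0% at 1 h, 33.1% (library 1) and 25.3% (library 2) at 4 h, and 30.9% at 8 h. Control, 1 h and 8 h have 1 library each, and the difference was not tested.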

How the results depend on the processing

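The count of genes called moved with the scaling, the filter, the tool and an assumed coefficient of variation. The assumed 0.4 lies above the estimate of 0.238 and still gave more genes, so these counts do not show the dispersion alone. In the order 1, 4 and 8 h against the control, 4 h against 1 h and 8 h against 4 h, edgeR's test called 0, 1, 0, 1 and 0 genes. Library size alone gave 57, 237, 22, 67 and 120 genes, no filter 285, 1300, 279, 725 and 957, DESeq2 56, 238, 33, 109 and 129, an assumed coefficient of variation of 0.2 238, 916, 184, 513 and 660, and one of 0.4 40, 81, 12, 33 and 48. At least 10 counts in every library gave 1 gene at 1 h and 0 at 4 h and for 4 h against 1 h, where RLE factors and limma-voom also gave 0. Members called were 5, 4, 0, 0 and 2 with library size alone, 6, 6, 1, 3 and 6 without a filter, 2, 3, 0, 0 and 1 with DESeq2, 5, 7, 0, 3 and 5 at 0.2 and 3, 2, 0, 0 and 2 at 0.4, and 0 throughout with RLE factors, limma-voom or at least 10 counts. The causes were not tested.

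Members past the fold against the control were 4 at 1 h (1.32% of all genes), 2 at 4 h (1.14%) and 0 at 8 h (1.39%) with 4-fold in place of 2-fold, and 3 at 8 h with 1.5-fold (13.9%). Without library 1 the count at 4 h was 6 (6.40% of all genes), and without library 2 it was 7 (11.8%). The counts past a fold between kainic acid time points, with their alternatives, were added after seeing the data. At 4 h, 3 members were at least 1.5-fold (5.18% of all genes) and 0 at least 4-fold (0.177%) below 1 h, library size alone gave 2, and leaving out a library gave 4 without library 1 (4.88%) and 1 without library 2 (5.13%). At 8 h, 2 members were at least 4-fold (0.491%) and 7 at least 1.5-fold (6.79%) below 4 h, library size alone gave 4, at least 10 counts 5, and leaving out a library 6 each time (4.67% and 8.71%). The counts with library size alone and with at least 10 counts have no share over all genes beside them and cannot be read against it.

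Of 21 member log2 fold changes, none changed sign under RLE factors, library size alone, a smaller prior count or without either 4 h library. Leaving out a 4 h library bears only on the values at 4 h, as those at 1 h and 8 h do not use it. Without library 1 the value of Fos at 4 h moved from 4.76 to 2.69, and the length of the longest transcript moved levels of Fosb, Fosl2, Junb and Fos up and changed gene orders. Library size alone brought 9 of the 21 fold changes past the threshold and shifted the median log2 ratio of all genes to -0.18 in library 1 at 4 h. Fosl1 is limited by depth, with 3 to 28 counts.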
